A study of Bos taurus with 12 samples.

Results

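The let-7 family of miRNAs was examined in mammary gland biopsies of Chinese Holstein cattle (Bos taurus). It was taken as 10 mature miRNAs of the 388 in the deposited table, defined by name and by no cutoff on a measured value. The members were bta-let-7a-5p, bta-let-7a-3p, bta-let-7b, bta-let-7c, bta-let-7d, bta-let-7e, bta-let-7f, bta-let-7g, bta-let-7i and bta-miR-98, named below without the bovine prefix. They held 14 of the 426 entries of mature miRNA and precursor, because let-7a-5p, let-7a-3p and let-7f are each listed under several hairpin precursors. The entry with the highest mean was used for each. Entries of let-7a-5p and of let-7a-3p differed by at most 0.169% of their mean between precursors, and let-7f was 4.07% lower under its other precursor.

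Small RNA sequencing was done on 12 libraries in 4 groups of 3, each library from a different healthy multiparous cow. HP and LP were cows with high and low milk protein percentage sampled in lactation. HD and LD were cows with high and low milk protein percentage sampled in the non-lactating period. All 4 groups shared breed, tissue and biopsy method, and no treatment was applied. Protein percentage was a selection on herd records and not an intervention, and the stages were compared between different cows. A biopsy holds several cell types, and fewer cells of a type cannot be told apart from less RNA per cell.

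Let-7 was found in nematodes as a miRNA that times the passage of cells from larval to adult fates, and its sequence is conserved in animals. In mammals, let-7 miRNAs repress growth and progenitor genes such as HMGA2, MYC, the RAS genes and LIN28, while the LIN28 proteins bind let-7 hairpins and block their maturation. Mature let-7 is low in stem and progenitor cells, including those of the mammary gland, and rises as cells differentiate. Its 5p arm is the guide strand loaded into the silencing complex, and let-7a-3p is the opposite strand of let-7a hairpins, which is mostly degraded. MiR-98 carries the same targeting seed as let-7. Several members differ from one another by very few bases, and reads were mapped with 1 mismatch allowed, so the division of reads among let-7a-5p, let-7c, let-7f and their relatives is uncertain. No member's sequence is printed here.

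Values are TPM, here meaning reads of an entry scaled so that the 426 entries of a library reach the same total, with no correction for length. Reads of a miRNA listed under several precursors enter that total more than once. The smallest step between values in a library gave its implied reads, the total over all miRNA entries with these repeats. They ran from 6026797 to 13374171 for the lactation libraries and from 11047701 to 23577942 for the dry ones. Implied reads are not sequencing depth, since the study reports clean reads within a narrow range over its libraries. Between 99.76% and 100% of the values in each library were whole multiples of that step within 0.0051 TPM. Read numbers given here are thus estimates from the values. A count of 3 reads equals 0.127 to 0.498 TPM, and the lowest let-7 value, 11.92 TPM for let-7a-3p in LD replicate 3, stood for about 249 reads. These limits cover counting error only. Markers of mammary epithelium, the miR-200 family with miR-141, miR-429 and miR-205, were present in every library, with a summed level of 14978 TPM or more. HD replicate 1 and LD replicate 1 stood apart from the other dry libraries in implied reads and in let-7a-3p. The study's list of cows places both furthest from calving in their groups. In HP replicate 1, 8 of the 9 members other than let-7a-3p lay above their group mean after normalization. In HD replicate 1 the number was 0 of 9, in LD replicate 1 it was 1 of 9, and elsewhere it was 2 to 7.

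The family was among the abundant miRNAs of the gland. Let-7f was the highest member, averaging 22719 ± 7738 TPM (SD over 12 libraries) at position 9 among 388 miRNAs, followed by let-7a-5p with 15972 ± 4818 TPM at position 11. Both are classic repressors of RAS and HMGA2. Let-7b averaged 9792 ± 2006 TPM, let-7i, a repressor of the innate receptor TLR4, 5416 ± 1514 TPM, let-7g 4222 ± 787 TPM and let-7c 3951 ± 1524 TPM. Lower levels were measured for let-7d (1129 ± 375 TPM), let-7e (1032 ± 451 TPM) and miR-98 (600.3 ± 106 TPM). Let-7a-3p was lowest, at 139.9 ± 121 TPM, with an SD close to its mean. Let-7f exceeded let-7a-5p, let-7a-5p exceeded let-7b, and let-7b exceeded let-7i in all 12 libraries. Neighbours further down were not separated in the same way. Let-7i exceeded let-7g in 9 libraries, let-7g exceeded let-7c in 7, let-7d exceeded let-7e in 7 and let-7e exceeded miR-98 in 9. MiR-98 exceeded let-7a-3p in all 12.

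**Figure D1:**
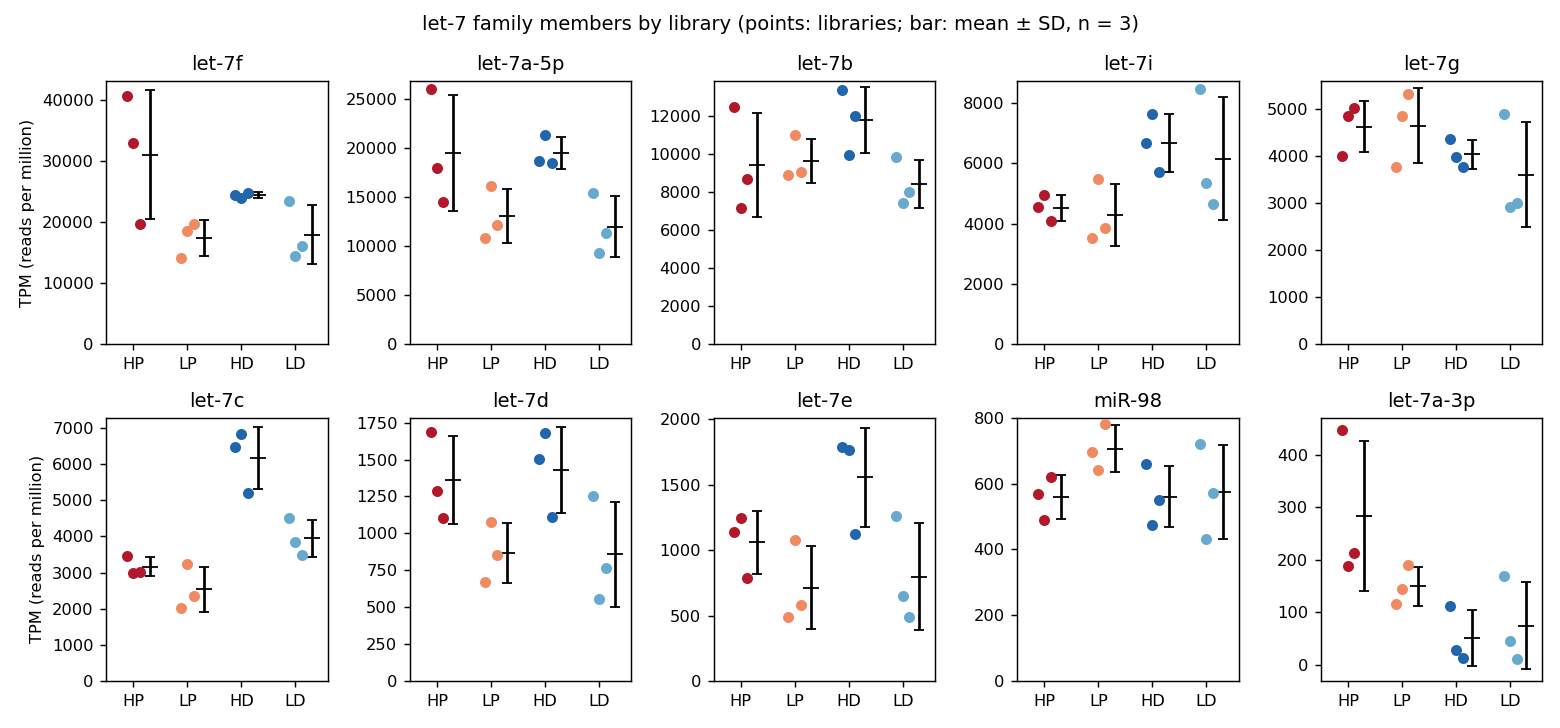
TPM of each let-7 member in every library, with 1 panel per member, the 4 groups (HP, LP, HD, LD) on the x axis and TPM on a linear y axis. Points are libraries, and bars are the group mean and SD (n = 3). Let-7a-3p sits at 116.04 to 447.34 TPM in the lactation groups and at 11.92 to 168.42 TPM in the dry groups, where the SD exceeds the mean.

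Together the members made up 9.52% ± 2.55 of all mature miRNA TPM in HP against 6.49% ± 1.16 in LP (SD, n = 3 each). In the dry gland they made up 10.2% ± 0.431 in HD against 6.85% ± 1.72 in LD. The 3 HP libraries held 12.2%, 9.3% and 7.08%, and the 3 LP libraries 5.35%, 7.67% and 6.44%, so HP and LP overlapped. The HD libraries held 10.4%, 10.4% and 9.69%, and the LD libraries 8.82%, 5.63% and 6.09%, with every HD library above every LD library. Stage moved the summed share less, from 8.0% ± 2.43 (lactation) to 8.52% ± 2.15 (non-lactating, SD, n = 6 each). These shares are descriptions and were not tested. A share also depends on the other miRNAs of the library. MiR-148a, an abundant miRNA of the milk-making gland, took 13.2% to 22.5% of TPM in the lactation libraries and 1.98% to 6.73% in the dry libraries.

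The makeup of the family was described by each member's share of the summed let-7 TPM. Let-7a-5p and let-7f supplied 58.8% ± 5.35 of family TPM (SD, n = 12), from 52.7% to 70.2%. Let-7c made up 4.49% ± 0.635 of family TPM in lactating and 7.74% ± 0.947 in dry glands (SD, n = 6 each). The 6 lactation libraries spanned 3.65% to 5.25% and the 6 dry libraries 6.44% to 8.81%, without overlap. Let-7i made up 7.06% ± 1.34 in lactation and 9.99% ± 1.74 in the dry gland, while let-7g made up 7.56% ± 1.94 and 5.93% ± 0.754. The ratio of let-7i to let-7g was 0.728 to 1.14 in the lactation libraries and 1.52 to 1.92 in the dry libraries. The ratio of let-7c to let-7a-5p was 0.134 to 0.209 when lactating and 0.282 to 0.415 when dry. Both ratios separated the stages in all 12 libraries and do not depend on scaling between libraries. They are among the 45 pairs of members, and the share of all pairs that separate the stages was not counted. Of single miRNAs, 59 of 388 (15.2%) were apart by stage in deposited TPM and 85 of 388 (21.9%) after normalization. The other ratios examined overlapped between stages. Let-7f to let-7a-5p was 1.15 to 1.84 in lactation and 1.13 to 1.55 when dry, and let-7d to let-7a-5p 0.062 to 0.076 and 0.060 to 0.082. Let-7c to miR-99a-5p was 0.70 to 2.70 in lactation and 0.48 to 1.81 when dry. Further pairs were not compared by stage. Within lactation, let-7a-5p and let-7f supplied 66.0% ± 5.96 of the family in HP and 56.4% ± 1.47 in LP.

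**Figure D2:**
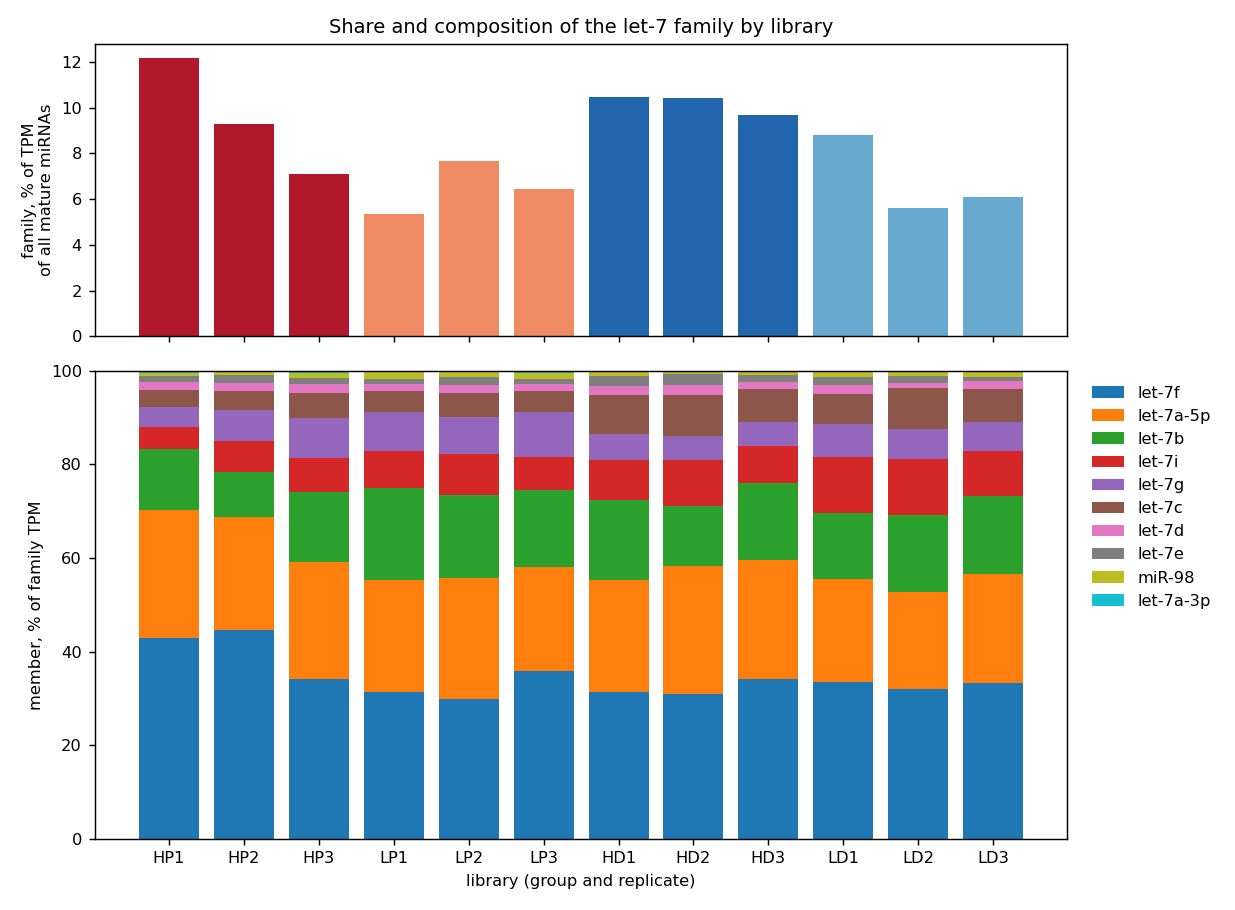
The family's share of all mature miRNA TPM in each of the 12 libraries (upper bars, from 0) and the share of summed let-7 TPM held by each member (lower stacked bars, 0 to 100%), with libraries ordered by group. Let-7f and let-7a-5p fill 52.7% to 70.2% of every stacked bar, and let-7c fills at most 5.25% of a lactation bar and at least 6.44% of a dry bar.

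HP vs. LP asks which miRNAs go with milk protein percentage in lactation. The study's thresholds for differentially expressed (DE) miRNAs were an unadjusted p under 0.05 with an absolute log2 fold change over 0.8. The study applied them to DESeq2 tests of read counts, and here they were applied to limma fits of TPM, so calls can differ. No member met them in the limma fit, where 39 of 388 miRNAs (10.1%) did. Log2 fold changes here and below are differences of log2(normalized TPM + 1), where normalized TPM is TPM divided by a size factor of the library. At an unadjusted p under 0.05 there were 2 members, let-7f and let-7d, and 61 of 388 miRNAs (15.7%). Both were lower in LP, as were 31 of 388 miRNAs (7.99%). The count of members at that p was 0 with the replicate number as a block (45 of 388 miRNAs) and 0 in limma without its mean-variance trend (55 of 388). It was 1 without size factors, with trimmed mean scaling, with a pseudocount of 5, with a minimum mean of 10 TPM and with all 12 libraries in 1 fit. In the main fit neither passed Benjamini-Hochberg adjustment over all miRNAs, which 1 of 388 (0.258%) did.

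Let-7f, the most abundant member, was at 40610.3, 32940 and 19646 TPM in HP and at 14127, 18526 and 19606 TPM in LP. HP replicates 1 and 2 lay far above LP, whereas HP replicate 3 was level with LP replicate 3. The log2 fold change of LP over HP was -0.75 ± 0.33 (SE), with a 95% interval of -1.49 to -0.01 and an adjusted p = 0.308 in limma. Let-7d, transcribed with let-7a and let-7f from neighbouring genes, was at 1690.3, 1290 and 1104 TPM in HP and at 671, 1078 and 852 TPM in LP. Every HP library lay above every LP library on both the deposited and the normalized scale. Here the log2 fold change was -0.62 ± 0.27 (SE), with an interval of -1.21 to -0.02 and an adjusted p = 0.307 in limma.

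Let-7a-5p followed the same order, with 25940.3, 17892 and 14488 TPM in HP and 10807, 16089 and 12125 TPM in LP, but the groups overlapped. Its log2 fold change was -0.52 (interval -1.19 to 0.14, limma adjusted p = 0.468). The passenger strand let-7a-3p was at 447.34, 188.26 and 213.12 TPM in HP and 116.04, 144.32 and 189.59 TPM in LP, with a log2 fold change of -0.79 (adjusted p = 0.361, limma). Its groups overlapped in TPM and were apart by a narrow margin after normalization, at 189.8 against 187.8. Let-7e, a member encoded beside miR-99b and miR-125a, was at 788 to 1246 TPM in HP and 487 to 1075 TPM in LP (log2 fold change -0.60, adjusted p = 0.432, limma). Let-7b, let-7g and let-7i had log2 fold changes of 0.10, 0.04 and -0.07, and let-7c -0.31. MiR-98 had the only sizeable positive value, 0.38, with 488 to 619 TPM in HP and 642 to 783 TPM in LP (adjusted p = 0.549, limma). In all, 7 of 10 members had a log2 fold change below 0, against 201 of 388 miRNAs (51.8%). The members' median was -0.41, and that of all miRNAs -0.01. After normalization 2 members, let-7a-3p and let-7d, had groups that did not overlap, against 77 of 388 miRNAs (19.8%). In deposited TPM 3 did, let-7d, let-7f and miR-98, against 67 of 388 (17.3%).

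The HP vs. LP counts depended on single libraries. The sign of let-7f and let-7d did not, at -1.11 to -0.48 and -0.82 to -0.41 on leaving out a library. Without HP replicate 1, the log2 fold change of let-7f was -0.48 and that of let-7d -0.41, and no member had p under 0.05, where 76 of 388 miRNAs did. The same count of 0 was obtained without LP replicate 1 (36 of 388 miRNAs) and without LP replicate 3 (39 of 388). Without HP replicate 3, 4 members became DE, with let-7f at -1.11, let-7a-3p at -1.004, let-7e at -0.86 and let-7d at -0.82, where 40 of 388 miRNAs (10.3%) were DE. Let-7a-3p became DE without HP replicate 2, where 33 of 388 (8.51%) were, and let-7e without LP replicate 2, where 49 of 388 (12.6%) were. No member passed adjustment in any of these fits. Markers of smooth muscle and stroma, among them miR-143 and miR-145, summed to 66642 to 97691 TPM in HP and 121956 to 157431 TPM in LP, with 1 of 5 DE and 0 of 5 passing adjustment. Of the erythroid markers, 2 of 3 were DE and higher in LP and 0 passed adjustment, and 1 of 5 leukocyte markers was DE and lower in LP. Their part in the let-7 values was not tested.

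HD vs. LD asks the same question in the dry gland. Let-7e was the 1 DE member, lower in LD, where 13 of 388 miRNAs (3.35%) were DE. It was at 1786.7, 1765 and 1122 TPM in HD and at 1261, 648 and 486 TPM in LD. HD replicate 3 lay below LD replicate 1, so the groups overlapped in deposited TPM. After normalization HD was at 1312, 1638 and 1269 and LD at 848, 904 and 653, with means of 1406 ± 202 and 801 ± 132 (SD, n = 3 each) and no overlap. The log2 fold change of LD over HD was -0.81 ± 0.26 (SE), just past the fold threshold, with an interval of -1.41 to -0.22 and an adjusted p = 0.935 in limma. No member and no miRNA passed adjustment (0.0%), and let-7e was the only member among the 19 of 388 (4.9%) with p under 0.05. Without size factors 3 members were among the 5 of 388 (1.29%) at that p, let-7a-5p, let-7c and let-7e, and with the replicate number as a block 2 were among 25 (6.44%), let-7a-5p and let-7e. Let-7e was no longer DE without HD replicate 2 or without LD replicate 3, at -0.68 in both fits, and in 1 fit over all 12 libraries, at -0.78.

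Let-7d was again lower in LD, at 1506, 1678 and 1109 TPM in HD and 1253, 557 and 765 TPM in LD. The log2 fold change was -0.56 (adjusted p = 0.993, limma), with groups apart after normalization but not in TPM. Let-7a-5p was at 18646, 21320.4 and 18409 TPM in HD and 15366, 9280.0 and 11305 TPM in LD, with every HD library higher. Let-7c was at 6463, 6842 and 5193 TPM in HD and 4497, 3849 and 3483 TPM in LD, also without overlap. After normalization both overlapped, with log2 fold changes of -0.49 and -0.41. Let-7b and let-7f behaved likewise, with -0.25 and -0.24. The number of members whose groups did not overlap was thus 4 in deposited TPM (let-7a-5p, let-7b, let-7c and let-7f), against 28 of 388 miRNAs (7.22%), and 2 after normalization (let-7d and let-7e), against 40 of 388 (10.3%). Size factors in this comparison ran from 0.717 in LD replicate 2 to 1.49 in LD replicate 1, and leaving them out moved the median of all miRNAs to -0.16. Beside that median, let-7a-5p stood at -0.73 and let-7e at -1.05 without size factors.

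The remaining members of HD vs. LD were near 0 or wide in error. Let-7g had a log2 fold change of 0.03, let-7i 0.08 and miR-98 0.25. Without size factors let-7g was -0.20 and let-7i -0.16. Let-7a-3p had 0.57 with an interval of -1.36 to 2.50, since HD held 112.33, 29.18 and 13.28 TPM and LD 168.42, 44.65 and 11.92 TPM. Below 0 were 6 of 10 members, against 183 of 388 miRNAs (47.2%), with a median of -0.24 against 0.03. Leukocyte markers summed to 8262 to 10428 TPM in HD and 10543 to 20486 TPM in LD, with 2 of 5 DE and higher in LD and 0 passing adjustment. Of the endothelial markers 1 of 2 was DE and higher in LD, and LD replicate 2 held 6127 TPM of erythroid markers. Their part in the let-7 values was not tested.

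**Figure D3:**
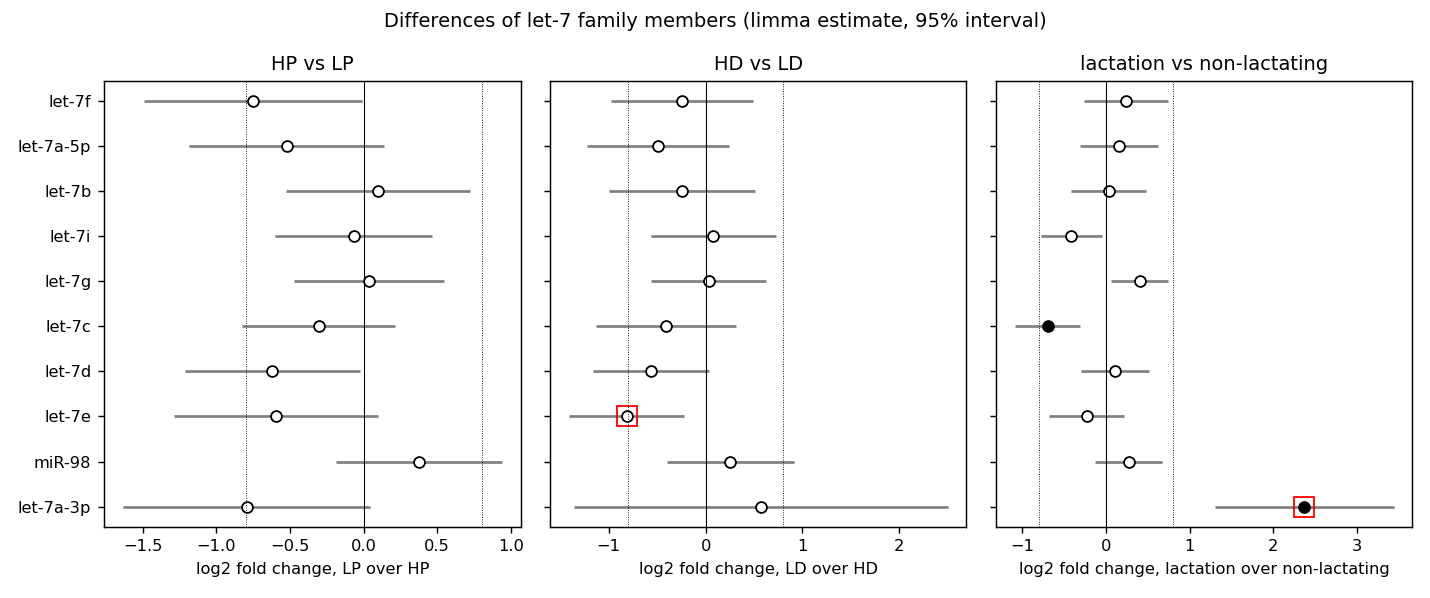
Log2 fold change of each let-7 member with its 95% interval, in 3 panels for LP over HP, LD over HD and lactation over the non-lactating period, with a line at 0, dotted lines at the fold threshold of 0.8 either way, filled points for an adjusted p under 0.05 and red squares for DE. In the first panel the intervals of let-7f and let-7d end just short of 0, in the second that of let-7e lies below 0, and in the third let-7a-3p stands at 2.37 and let-7c at -0.70.

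Lactation against the non-lactating period compared 6 libraries with 6. Let-7a-3p rose in lactation and let-7c fell after adjustment, so 2 of 10 members passed, where 172 of 388 miRNAs (44.3%) did. By direction this was 1 member higher and 1 lower, against 86 of 388 (22.2%) in each direction. Let-7a-3p alone also met the DE thresholds, against 129 of 388 miRNAs (33.2%). The 9 members other than let-7a-3p had log2 fold changes between -0.70 and 0.40. The median absolute log2 fold change was 0.25 for the members and 0.56 for all miRNAs.

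Let-7a-3p, the passenger strand, was at 447.34, 188.26, 213.12, 116.04, 144.32 and 189.59 TPM in the lactation libraries and at 112.33, 29.18, 13.28, 168.42, 44.65 and 11.92 TPM in the dry libraries. Only HD replicate 1 and LD replicate 1 came near the lactation level, and LD replicate 1 exceeded LP replicates 1 and 2. After normalization every lactation library lay above every dry library, with 222 ± 126 against 50.2 ± 39.0 (SD, n = 6 each). The log2 fold change was 2.37 ± 0.49 (SE), with an interval of 1.31 to 3.44 and limma adjusted p = 0.00208. Its size ranked 15 among 388 miRNAs.

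For the guide strand of the same hairpins, let-7a-5p, the log2 fold change between stages was 0.15 (interval -0.31 to 0.62). The ratio of let-7a-5p to let-7a-3p was 58.0 to 111 in the lactation libraries and 91.2 to 1386 in the dry libraries. Its mean log2 was 6.17 ± 0.36 in HP and 6.45 ± 0.41 in LP, against 9.11 ± 1.57 in HD and 8.03 ± 1.71 in LD (SD, n = 3 each). The dry libraries thus varied more than the lactation libraries. In the dry groups let-7a-3p was highest in replicate 1 (112.33 and 168.42 TPM), at 29.18 and 44.65 TPM in replicate 2 and lowest in replicate 3 (13.28 and 11.92 TPM). In both groups that order is also the order of the cows' listed distance from calving, furthest to nearest.

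Let-7a-3p also moved with implied reads. The 4 dry libraries of 20895761 to 23577942 implied reads held 11.92 to 44.65 TPM. HD replicate 1 and LD replicate 1, of 11047701 and 14327050 reads, held 112.33 and 168.42 TPM, and the lactation libraries, of 6026797 to 13374171 reads, held 116.04 to 447.34 TPM. Let-7a-3p stood for an estimated 249 to 2696 reads per library. With log2 implied reads as a covariate, an alternative chosen after seeing the data, the log2 fold change of let-7a-3p was 0.89 (limma adjusted p = 0.240), no member passed adjustment and 68 of 388 miRNAs did. Without HD replicate 1 and LD replicate 1, also chosen after seeing the data, it was 2.996 (limma adjusted p = 0.000252). Implied reads, distance from calving and stage cannot be fully told apart in these libraries.

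**Figure D4:**
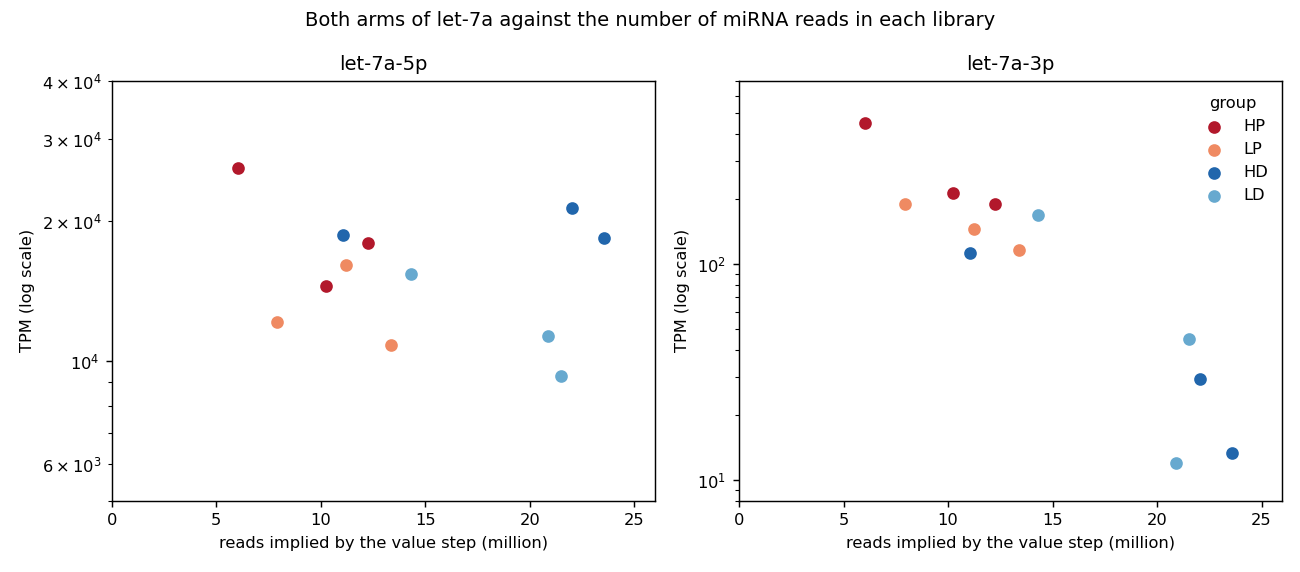
Let-7a-5p (left) and let-7a-3p (right) in TPM on a log10 y axis against the implied reads of each library on the x axis, with 1 point per library coloured by group. The 4 dry libraries with the most implied reads lie at 11.92 to 44.65 TPM of let-7a-3p and at 9280.0 to 21320.4 TPM of let-7a-5p. HD replicate 1 and LD replicate 1 lie at 112.33 and 168.42 TPM of let-7a-3p.

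Let-7c, encoded beside miR-99a and a copy of miR-125b, was lower in lactation. The lactation libraries held 3466, 2983, 3025, 2026, 3226 and 2355 TPM, and the dry libraries 6463, 6842, 5193, 4497, 3849 and 3483 TPM. In deposited TPM the stages did not overlap, though HP replicate 1 and LD replicate 3 nearly met. It was the 1 member apart on that scale, against 59 of 388 miRNAs (15.2%). After normalization LD replicate 1 fell among the lactation libraries, with means of 2885 ± 427 and 4760 ± 1096 (SD, n = 6 each). The log2 fold change was -0.70 ± 0.18 (SE), with an interval of -1.09 to -0.31 and limma adjusted p = 0.0078. HD lay above HP by more than LD lay above LP in TPM, with 6166 ± 864 in HD, 3158 ± 267 in HP, 3943 ± 514 in LD and 2536 ± 620 in LP (SD, n = 3 each), a contrast that the stage dependence test below addresses. Without both replicate 1 dry libraries the value was -0.88 (limma adjusted p = 0.00140), and with implied reads as a covariate -0.51 (limma adjusted p = 0.189).

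Let-7g and let-7i moved in opposite directions without passing adjustment. Let-7g was at 3996, 4835, 5016, 3762, 4853 and 5314 TPM in lactation and at 4358, 3977, 3759, 4882, 2905 and 3002 TPM in the dry gland. After normalization its stages did not overlap, which held for 2 members (let-7a-3p and let-7g) and for 85 of 388 miRNAs (21.9%). The log2 fold change was 0.40 (interval 0.06 to 0.74, adjusted p = 0.0550, limma). Let-7i was at 4545, 4963, 4096, 3541, 5476 and 3866 TPM in lactation and at 6690, 7638, 5714, 8474, 5352 and 4642 TPM in the dry gland. Only LD replicates 2 and 3 lay within the lactation range. Let-7i had a log2 fold change of -0.42 (interval -0.78 to -0.05, adjusted p = 0.0634, limma), and it passed adjustment without both replicate 1 dry libraries, at -0.54 (adjusted p = 0.0224). These 4 members were those with an unadjusted p under 0.05, against 196 of 388 miRNAs (50.5%). For let-7b, let-7d, let-7e, let-7f and miR-98 the values were 0.03, 0.11, -0.23, 0.24 and 0.27.

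Markers of cell types moved with stage beside these members. Of all miRNAs, 86 of 388 (22.2%) passed adjustment in each direction. Epithelial markers summed to 34301 to 44371 TPM in lactation and 14978 to 38785 TPM in the dry gland, and 5 of 6 were higher in lactation after adjustment. Both endothelial markers, the 2 arms of miR-126, were higher in lactation, at 10665 to 16528 against 4676 to 10738 TPM. Leukocyte markers summed to 5146 to 8911 TPM in lactation and 8262 to 20486 TPM in the dry gland, with 2 of 5 lower in lactation. Markers of smooth muscle and stroma were 2 of 5 lower in lactation. None of the 3 erythroid and none of the 3 measured striated muscle markers passed adjustment, and miR-206 is not in the table. No measured marker was at 0 in any library. The part of tissue makeup in the let-7 values was not tested.

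Whether the phenotype difference depended on stage was tested as (LP over HP) minus (LD over HD) over all 12 libraries. No member was DE, where 17 of 388 miRNAs (4.38%) were, and no member had p under 0.05, where 20 of 388 (5.15%) did. The widest estimates were let-7a-3p at -1.35 (interval -3.48 to 0.78) and let-7f at -0.50 (interval -1.50 to 0.51), both with limma adjusted p = 0.963. For let-7e, called DE in HD vs. LD, the difference was 0.23 with an interval of -0.65 to 1.12. For let-7c it was 0.11 (interval -0.67 to 0.90). These intervals leave room for differences larger than those measured within either stage. Without LD replicate 3, let-7a-3p became DE, at -2.13, where 22 of 388 miRNAs (5.67%) were.

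Members differed in how steady they were within groups. The SD of log2 normalized TPM within groups was 0.182 for let-7g, 0.222 for let-7i, 0.264 for let-7c, 0.274 for miR-98 and 0.280 for let-7d. It was 0.334 for let-7b, 0.337 for let-7e, 0.349 for let-7a-5p and 0.396 for let-7f, against a median of 0.398 over all 388 miRNAs. Let-7a-3p, with 1.007, varied more than 95.4% of miRNAs.

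Some pairs of members kept a steadier ratio than others across the 12 libraries. Of the 45 pairs, let-7a-5p and let-7d were closest, with let-7a-5p at 12.3 to 16.7 times let-7d in TPM and an SD of the log2 ratio of 0.159. Let-7a-5p and let-7f followed with 0.205, then let-7g and miR-98 with 0.253, let-7d and let-7f with 0.272, and let-7c and let-7i with 0.288. These ratios ranged more widely, with let-7a-5p at 0.54 to 0.89 times let-7f and let-7g at 5.25 to 9.90 times miR-98. RefSeq annotation of cattle (ARS-UCD2.0) lists genes of let-7a, let-7f and let-7d side by side, another let-7a gene beside let-7b, and miR-98 beside the other let-7f gene. Let-7i stands alone, and let-7g lies near miR-135a. Because each mature let-7a or let-7f sums over several genes and shares reads with near copies, the ratios are descriptions of these 12 libraries. The 9 pairs with let-7a-3p had SDs of 1.49 to 1.95. Outside the family, of 122 miRNAs with a mean of at least 100 TPM, miR-28 followed the summed family most closely (SD of the log2 ratio 0.211), then miR-421 (0.254) and miR-181b (0.269).

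Of the miRNAs encoded near let-7 genes, 6 of the miR-99/100 and miR-125 families were taken as a list, miR-99a-5p, miR-99a-3p, miR-99b, miR-100, miR-125a and miR-125b, and all were in the table. Other neighbours were not analysed here. In HP vs. LP all 6 had values below 0, against 51.8% of all miRNAs, and none was DE, against 10.1%. MiR-125b, at -0.72 (adjusted p = 0.251, limma), and miR-125a, at -0.55 (adjusted p = 0.307, limma), had an unadjusted p under 0.05, against 15.7% of all miRNAs. In HD vs. LD 3 of 6 were below 0 and none had p under 0.05. Between stages all 6 were below 0, against 3 of the 10 let-7 members and 199 of 388 miRNAs (51.3%). Their median log2 fold change was -0.50, that of all miRNAs -0.01, and none passed adjustment, where 44.3% of all miRNAs did. MiR-99a-5p, the neighbour of let-7c, stood at -0.87 (adjusted p = 0.123, limma) beside the -0.70 of let-7c, and miR-100, the neighbour of a let-7a gene, at -0.93 (adjusted p = 0.117, limma) beside the 0.15 of let-7a-5p.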

How the data were processed

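Small RNA libraries of 12 mammary biopsies were sequenced as single-end reads. Per the study's methods, Cutadapt 2.8 and Trimmomatic 0.36 trimmed adapters and poor bases, lengths of 18 to 30 nt were retained, Bowtie 1.1.1 aligned reads to the ARS-UCD1.2 genome with up to 1 mismatch, and miRDeep2 quantified miRBase 22.0 miRNAs. The authors deposited RPM values, which they call TPM, rounded to 2 decimals, for 426 entries, and tested read counts with DESeq2. Read counts were not used here.

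Groups and replicate numbers came from the labels. The highest entry of each of 388 miRNAs was kept, its TPM was scaled by a median-of-ratios size factor per library, and log2(value + 1) was fitted. The fits used limma 3.58.1 (empirical Bayes with a mean-variance trend) in R 4.3.3, with the 6 libraries of a stage for each phenotype comparison and all 12 for stage, with Benjamini-Hochberg adjustment over all miRNAs. The script was tested on simulated data. Shares, ratios and figures were made in Python 3.11.15 with pandas 2.3.3, numpy 2.4.6 and matplotlib 3.10.9. P-values set a difference against the variation between cows within groups of 3, moderated by limma toward a trend over all miRNAs. The tests of stage and of stage dependence pooled that variation over all 4 groups. Alternatives were other scalings, pseudocounts, filters, entries and sets of libraries. The family is defined by name, but it and the lists were chosen with earlier results of these data known. Named miRNAs were all members, 6 genomic neighbours, miR-148a, cell type markers and the 3 miRNAs most like the summed family. The rule also named miRNAs with the same seed bases, which were not analysed here.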

Additional observations from a re-analysis of the deposited data

Results flagged for a closer look

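HP replicate 1 was far above the other 5 lactation libraries in both arms of let-7a. Its gap to the next library took 0.631 of the whole range of normalized let-7a-5p, where it held 27346 TPM, and 0.781 of the range of let-7a-3p, where it held 472 TPM. Each of the 10 members was examined in this way in the 6 libraries of each stage, which made 20 groups, and chance flags about 1 in 20. HP replicate 1 also had the fewest implied reads of all libraries, at 6026797. Without it, the HP vs. LP log2 fold change of let-7a-5p was -0.25 and that of let-7a-3p -0.37.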

How the results depend on the processing

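The number of DE members stayed at 0 in HP vs. LP and in the stage dependence test under every alternative other than leaving out libraries, and ranged from 0 to 4 and from 0 to 1 on leaving out single libraries. In HD vs. LD it was 0 with all 12 libraries in 1 fit and 0 to 1 when leaving out a library. Between stages it was 2 without size factors (128 of 388 miRNAs, 33.0%), 2 without both replicate 1 dry libraries (144 of 388, 37.1%), 0 with implied reads as a covariate (109 of 388, 28.1%), and 1 to 2 when leaving out a library. Without size factors the log2 fold changes of let-7g (-0.20) and let-7i (-0.16) in HD vs. LD and of let-7b (-0.075) and let-7d (-0.0020) between stages changed sign. Without both replicate 1 dry libraries let-7a-5p (-0.016) and let-7b (-0.11) did so between stages. Leaving out a library turned values in HP vs. LP for let-7b (-0.061 to 0.36), let-7g (-0.056 to 0.092) and let-7i (-0.20 to 0.022), in HD vs. LD for let-7a-3p (-0.019 to 1.34), let-7g (-0.085 to 0.14) and let-7i (-0.089 to 0.21), and between stages for let-7b (-0.10 to 0.13). None of these had passed a threshold, and the cause was not tested. The family share summed over all entries was 14.5% (HP), 9.69% (LP), 13.8% (HD) and 9.54% (LD). In that sum, precursors of let-7a and of let-7f repeat reads. Without the most abundant miRNA of each library, the share from 1 entry per miRNA was 11.8% (HP), 8.14% (LP), 11.9% (HD) and 8.50% (LD).

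Replicate numbers are shared between groups but belong to different cows, and deviations of same-numbered libraries correlated at -0.26 to 0.01 in lactation, with 0 of 3 pairs over 0.1, and at -0.11 to 0.55 in the dry groups, with 2 of 3 pairs over 0.1. With the replicate number as a block, 0 members were DE in HP vs. LP, 1 in HD vs. LD, 1 between stages and 0 in the stage dependence test. Let-7g passed adjustment between stages under the block (limma adjusted p = 0.0466) and with trimmed mean scaling (0.0326). Tests of recovered read counts were planned and not run, because a separate check of the unit did not accept recovered reads for most libraries. By the step of the values, 99.76% to 100% of them were whole multiples in each library. Counting error was small for every member, whose lowest value stood for about 249 reads, but let-7a-3p moved with implied reads and that was not resolved.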
